A study of Homo sapiens and Mus musculus with 69 samples.

Results

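Forced expression of the transcriptional repressor REST in H524 cells was compared with the same cells left uninduced. H524 (NCI-H524) is an established human small cell lung cancer (SCLC) line with a neuroendocrine (NE) program in which the lineage factor NEUROD1 is highly expressed. Of the 69 RNA-seq libraries of the series, 6 made up the comparison, all from a selected pool of H524 cells that carried a doxycycline-inducible vector for human *REST*. In 3 of them, labelled REST_no_dox (libraries 34, 35 and 36), the cells received no doxycycline, and in the other 3, labelled REST_dox (libraries 37, 38 and 39), doxycycline was given for long-term culture. Per the study's methods, only adherent cells, those that needed trypsin to come off the plate, were collected from the induced cultures, so induction and selection for adherence cannot be told apart, and neither can doxycycline itself, since no doxycycline-treated cells without a REST or NOTCH1 vector were among the H524 groups. The same model also held 9 further H524 libraries, namely 3 of parental cells and 3 each of cells with an inducible vector for the NOTCH1 intracellular domain (N1ICD, the active form of the Notch1 receptor) without and with doxycycline. The comparison asked what REST, a factor that Notch signaling can raise in SCLC, changed when it was induced by itself. All 20516 genes of the human table were members, and 13648 of them passed a filter on low values and were tested.

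REST (RE1-silencing transcription factor) is a zinc finger protein that keeps neuronal genes off in cells that are not neurons. It binds a long DNA element called RE1 and recruits a pair of corepressor assemblies, SIN3A with histone deacetylases HDAC1 and HDAC2, and CoREST (RCOR1) with HDAC1, HDAC2 and the histone demethylase LSD1 (KDM1A). SCLC cells of the NE type, like neurons, keep REST low, and genes for synaptic vesicles, ion channels and neuronal cytoskeleton remain on.

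The core of RE1 holds the motifs CAGCACC and GGACAG, which were searched 2 bases apart on both strands in the 250 bases before and 50 bases after the start of each gene (RefSeq, GRCh38.p14). It was present in full in 18 of 35116 promoters (0.0513%), and in 79 (0.225%) when 1 of the 13 letters was allowed to differ. Among the tested genes, 10812 were matched to a promoter by symbol and 6 of them held the full core (0.0555%). Of these 6, the 3 with the largest falls are printed, so they were chosen after their values were seen. They are *SYN1*, which encodes the synaptic vesicle protein synapsin I, *UCN*, which encodes the peptide urocortin, and *OGDHL*, an oxoglutarate dehydrogenase family gene. Capitals mark both motifs, and each sequence is the 250 bases upstream of the gene start, read 5′ to 3′ on the gene's own strand (chrX:47619858-47620107, chr2:27308446-27308695 and chr10:49762324-49762573, all minus strand).
SYN1: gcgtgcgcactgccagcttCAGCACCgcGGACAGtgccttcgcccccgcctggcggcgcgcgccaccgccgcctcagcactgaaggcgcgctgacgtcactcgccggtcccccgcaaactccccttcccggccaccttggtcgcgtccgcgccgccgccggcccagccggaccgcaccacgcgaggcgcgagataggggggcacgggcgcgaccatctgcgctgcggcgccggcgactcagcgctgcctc
UCN: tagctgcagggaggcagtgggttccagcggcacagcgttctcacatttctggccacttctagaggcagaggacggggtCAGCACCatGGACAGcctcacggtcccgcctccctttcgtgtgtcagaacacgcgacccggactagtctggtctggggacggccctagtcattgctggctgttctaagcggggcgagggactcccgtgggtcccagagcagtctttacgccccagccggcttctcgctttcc
OGDHL: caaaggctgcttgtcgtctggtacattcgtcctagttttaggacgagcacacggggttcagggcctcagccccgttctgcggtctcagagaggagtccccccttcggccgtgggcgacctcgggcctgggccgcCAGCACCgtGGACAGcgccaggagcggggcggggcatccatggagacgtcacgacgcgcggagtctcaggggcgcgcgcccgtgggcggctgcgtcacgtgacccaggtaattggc
The core began 231 bases before the start of *SYN1*, 172 before that of *UCN* and 116 before that of *OGDHL*.

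The library values were deposited as log2(RPKM + 1), where RPKM is read density corrected for gene length and library size, after scaling between libraries and with a pseudocount of 1, and all levels and differences below are on that scale. *SYN1* stood at 4.20, 3.78 and 3.58 without doxycycline and at 3.48, 2.26 and 3.14 with it. *UCN* stood at 1.84, 2.26 and 1.66 without and at 1.35, 1.10 and 0.91 with doxycycline, and *OGDHL* at 2.91, 2.59 and 2.69 against 2.43, 2.16 and 2.25. In each of these 3 genes the libraries with doxycycline lay below all of those without, yet none was called, with log2 fold changes of -0.89 (adjusted P = 0.084), -0.80 (adjusted P = 0.134) and -0.45 (adjusted P = 0.306) by limma. All 6 tested genes with the full core had a fold change below 0, with a median of -0.36, against 0.01 over all tested genes. The other members were *TMEM179* (-0.26), *BSX* (-0.26) and *TTC9B* (-0.07). *BSX* was above 0 in library 34 alone (0.77). *TTC9B* was at 1.99, 0.57 and 0.65 without and at 0.65, 0.98 and 1.37 with doxycycline. The sign of these 2 genes thus rested on library 34. With 1 letter allowed to differ, 18 of 30 genes were below 0 and 1 was called, the keratin gene *KRT9*, which was higher. *KRT9* was listed at 0 in libraries 34, 35 and 36, so no fall was possible. Among the genes called lower, 54 had a promoter in the table and none held the core, with or without a mismatch in this window. Of the 15 called-lower neuronal genes described below only 8 were among these, and the others were not searched. Of 34 neuronal genes of the REST-target type with a promoter in the table, 1 held the full core (2.94%, against 0.0555% of the tested genes), *SYN1*, and 2 held it with up to 1 mismatch (5.88%, against 0.277%), and neither was called. These genes were listed for being of the REST-target type, so their larger share is not a result of these data.

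The library-wide values were examined before any gene. Libraries 34 and 37 stood apart from the others in heat shock genes. *HSPA1B*, which encodes an inducible HSP70 chaperone, was at 15.60, 10.20 and 10.17 without doxycycline and at 13.31, 9.00 and 10.18 with it, and *DNAJB1*, which encodes an HSP40 co-chaperone, was at 9.51, 4.31 and 4.35 against 7.24, 3.87 and 4.32. So 1 library in each group was high, and among the doxycycline libraries the order was 37, then 39, then 38 for *HSPA1A*, *HSPA1B* and *DNAJB1*. Read depth relative to library 35, estimated from the steps between the lowest values, was 1.00 and 0.959 in libraries 34 and 36 and 0.859, 1.30 and 1.03 in libraries 37, 38 and 39. Genes read above 0 numbered 15866 to 16532 per library. Libraries 35 and 36 were the closest pair (SD of their differences 0.103 over 644 genes above log2 8, against 0.309 to 0.481 for the other pairs within a group) and were kept as separate samples, since their values differed. Over the same 644 genes library 34 was nearer to library 37 of the other group (0.409) than to libraries 35 and 36 (0.445 and 0.431). Over 7502 genes, the deviations of libraries 34 and 37 from their group means had a correlation of 0.58. Other pairs across the groups ranged from -0.54 (36 and 37) to 0.51 (36 and 38). Deviations from a shared group mean depend on each other, so these values are not separate evidence. Likeness across the groups was therefore wider than heat shock genes and not limited to libraries 34 and 37. No label says that libraries came from separate cultures, so the spread between libraries of a group may be technical. Unless stated otherwise, P values rest on that spread pooled over all H524 groups of the model. The pool includes the parental and N1ICD-vector libraries, so it is not the spread of the REST-vector libraries alone. Cell type markers were as labelled for a cultured line: *NEUROD1* was above 13.8 in all 6 libraries, and *PTPRC*, *CD3E*, *VWF* and *SFTPC*, markers of leukocytes, T cells, endothelium and alveolar epithelium, did not exceed 0.11 in any. *COL3A1*, a fibrillar collagen gene of fibroblasts, was at 4.23 in library 37 and at or below 0.58 in the other 5 libraries.

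*REST* itself rose unevenly. Without doxycycline it was at 5.05, 5.03 and 4.90, close to the parental values of 4.86, 4.95 and 4.52, and with doxycycline it was at 6.87 in library 37, 10.72 in library 38 and 9.43 in library 39. On the linear RPKM scale these were 3.75, 54.5 and 22.3 times the mean without doxycycline. The groups did not overlap, and the log2 fold change was 4.01 (SE 0.69, adjusted P = 0.00752, limma over all 15 H524 libraries), although in a model of the 6 libraries with the REST vector alone the adjusted P was 0.0605. A gene-level value cannot separate transcripts of the vector from those of the cells' own *REST* gene. The *REST* values without doxycycline were above the medians of the tested genes, 3.32, 3.31 and 3.28 in libraries 34, 35 and 36. The paper describes minimal endogenous REST in H524 cells, but at the level of protein. Library 38 held the most *REST*, the most reads and the least *HSPA1A*, *HSPA1B* and *DNAJB1* RNA of the 3, and library 37 the least *REST*, the fewest reads and the most RNA of these heat shock genes. These 3 orders therefore coincide and cannot be told apart, although a further heat shock gene, *HSPB1*, was at 8.54, 8.05 and 7.75 in libraries 37, 38 and 39 and so was lowest in 39.

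**Figure D1:**
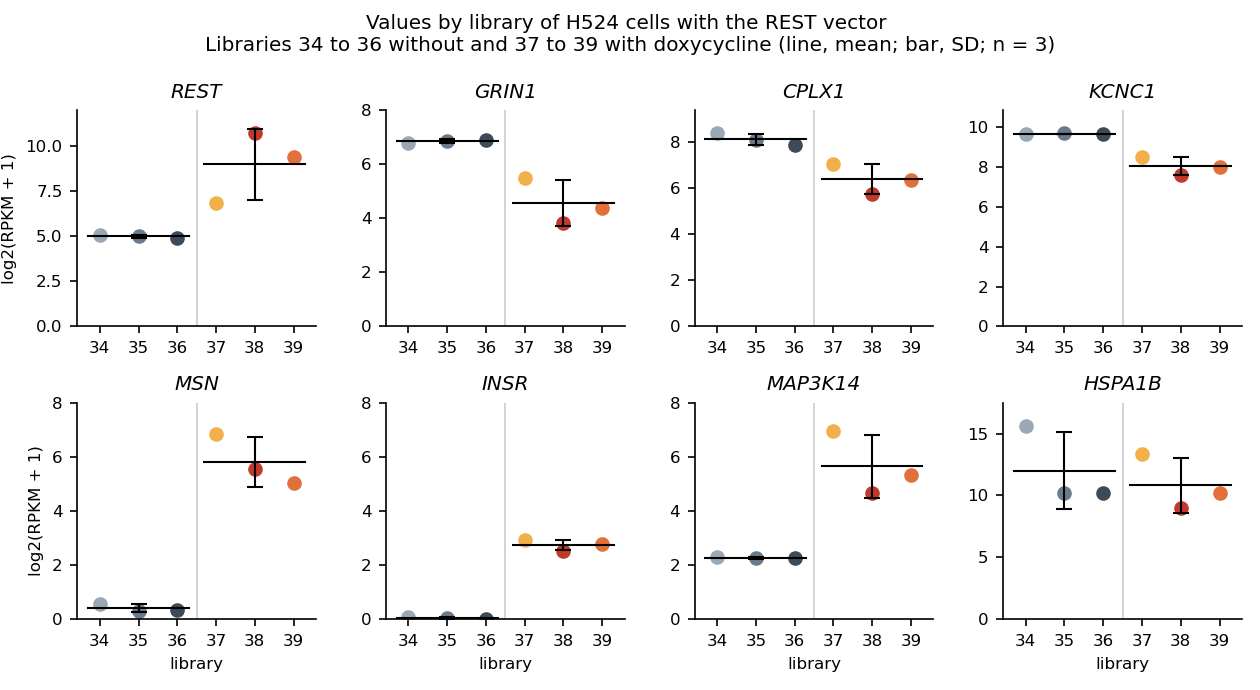
Level of 8 genes, in log2(RPKM + 1), in each library without (34 to 36) and with (37 to 39) doxycycline, with points for libraries, a line for the mean and a bar for the SD of 3. *REST* spans 6.87 to 10.72 among the doxycycline libraries while *GRIN1*, *CPLX1* and *KCNC1* are lower and *MSN*, *INSR* and *MAP3K14* higher in all 3, and *HSPA1B* is highest in libraries 34 and 37.

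A gene was called when the adjusted P of limma (Benjamini-Hochberg over the 13648 genes) was under 0.05 and the log2 fold change was at least 1 in either direction. By this rule 255 genes (1.87% of those tested) were called, 175 higher (1.28%) and 80 lower (0.586%) with doxycycline, and in all of them the 3 libraries of the groups did not overlap. At an unadjusted P under 0.05 there were 2374 genes. The calls were sensitive to the library set: 68 of the 175 higher and 18 of the 80 lower genes remained called whichever of the 6 libraries was left out, and the lower genes that remained numbered 24 without library 39, 28 without 38, 30 without 35, 31 without 36, 43 without 34 and 73 without 37. Without libraries 34 and 37 together, an alternative chosen after the data were seen, 124 genes were higher and 73 lower, of which 105 and 53 were among the original calls, and all 255 kept their direction.

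Neuronal genes were frequent among those that fell. The gene lists here and below were chosen with earlier results of these data known, so their shares describe the calls and are not tests. Of 192 tested members of 5 neuronal lists, 15 (7.81%) were called lower, against 0.586% of all tested genes, and 1 (0.521%), *MAPT*, was called higher, against 1.28%. The median log2 fold change of these 192 genes was -0.45, against 0.01 over all tested genes. Among 55 tested genes of the REST-target type (of 62 listed), 9 were called lower and 0 higher, the median was -0.82, and in 36 genes all 3 doxycycline libraries lay below all 3 without, an arrangement found in 16.1% of all tested genes. Of the 55, 33 had an unadjusted P under 0.05, 32 of them below 0. The 9 calls became 15 without library 37, 5 without 36, 4 without 34, 35 or 38, 3 without 39 and 8 without 34 and 37 together. In bulk RNA, fewer cells of a kind and less RNA per cell cannot be told apart.

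The largest fall among synaptic receptors and channels was that of *GRIN1*, which encodes the obligatory subunit of NMDA-type glutamate receptors. It was at 6.77, 6.86 and 6.92 without doxycycline and at 5.50, 3.84 and 4.40 with it (log2 fold change -2.27, SE 0.41, adjusted P = 0.00989). The 3 libraries without doxycycline were close to each other, while those with doxycycline were spread, highest in 37 and lowest in 38. *KCNC1*, which encodes a fast voltage-gated potassium channel (Kv3.1), was at 9.66, 9.69 and 9.65 against 8.52, 7.61 and 8.00 (-1.62, SE 0.24, adjusted P = 0.00268), in the same order. Of 58 tested channel and receptor genes 3 (5.17%) were called, all lower, against 0.586% of all tested genes called lower, and the median was -0.14. The third gene is not reported here and did not have this order. A further potassium channel gene outside the lists, the tandem pore family member *KCNK12*, was at 3.33, 3.48 and 2.69 against 1.51, 1.21 and 1.27 (-1.84, adjusted P = 0.000731). *KCNC1* and *KCNK12* remained called whichever library was left out, and *GRIN1* in 5 of 6 such fits (adjusted P = 0.0538 without library 39).

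Genes of vesicle release followed. *CPLX1* and *CPLX2* encode complexins, small proteins that clamp and then assist vesicle fusion. *CPLX1* was at 8.36, 8.09 and 7.86 without doxycycline and at 7.05, 5.74 and 6.36 with it (-1.72, SE 0.34, adjusted P = 0.0164). *CPLX2* was at 7.72, 7.74 and 7.72 against 7.06, 5.53 and 6.37 (-1.41, adjusted P = 0.0342). *SYP*, which encodes the vesicle membrane protein synaptophysin and serves as a diagnostic NE marker, was at 6.22, 6.30 and 6.47 against 5.69, 4.83 and 5.30 (-1.06, adjusted P = 0.0303). The fourth called of 50 tested synaptic genes was *PCLO*, an active zone scaffold, at 2.64, 1.77 and 1.76 against 1.41, 0.47 and 0.95 (-1.11, adjusted P = 0.0402). The 4 made up 8.0% of the 50, against 0.586% of all tested genes called lower. No member was called higher, and the median of the 50 was -0.51. The 4 calls became 9 without library 37, 1 without 36 and 0 without 34, 35, 38 or 39, although 25 of the 50 genes had an unadjusted P under 0.05 in the full set, 23 of them below 0. In all 4 genes library 37 was the highest and library 38 the lowest of the induced libraries. These calls depended on single libraries. *CPLX1* was called in 2 of 6 fits that left out a library (largest adjusted P = 0.075, without library 39), and *CPLX2*, *SYP* and *PCLO* in 1 of 6, with largest adjusted P values of 0.121 without library 39, 0.128 without 36 and 0.167 without 38. All 4 were called without libraries 34 and 37.

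Among 47 tested cytoskeletal and adhesion genes of neurons 6 (12.8%) were called lower, against 0.586% of all tested genes, and the median was -0.66. *GAP43*, a growth cone protein, was at 8.40, 8.06 and 8.10 without doxycycline and at 6.49, 5.89 and 5.86 with it (-2.10, SE 0.43, adjusted P = 0.0205). *STMN4*, of the stathmin family of microtubule regulators, was at 5.16, 2.72 and 2.68 against 1.69, 0.52 and 1.09 (-2.42, adjusted P = 0.0364), so that library 34 lay far above the other 2 uninduced libraries. *STMN3*, a further stathmin, was at 4.26, 4.57 and 4.54 against 3.48, 2.79 and 3.24 (-1.29, adjusted P = 0.00216). The neurofilament genes *NEFM* and *NEFL* fell by 1.83 (6.32, 6.00 and 5.97 against 4.66, 3.93 and 4.21, adjusted P = 0.0247) and by 1.29 (6.01, 5.36 and 5.36 against 4.67, 3.86 and 4.33, adjusted P = 0.019). *SEZ6*, a neuronal surface protein, completed the group at 5.98, 5.19 and 5.27 against 4.51, 2.89 and 4.03 (-1.67, adjusted P = 0.0482). The groups did not overlap in any of the 6, and library 38 was the lowest in all but *GAP43*. *STMN3* remained called whichever library was left out. *GAP43*, *NEFM* and *SEZ6* were called in 1 of 6 such fits, *NEFL* in 2 and *STMN4* in 3, with largest adjusted P values between 0.0888 (*NEFL*, without library 38) and 0.181 (*SEZ6*, without 38). Without libraries 34 and 37, *GAP43* (adjusted P = 0.0798), *NEFM* (0.088) and *SEZ6* (0.0868) were not called.

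The last neuronal genes called lower were *AP3B2*, the neuron-specific beta subunit of the AP-3 vesicle coat, and *MAPK8IP2*, a scaffold of JNK kinases in neurons. *AP3B2* was at 7.39, 7.05 and 7.10 against 6.09, 5.41 and 5.94 (-1.36, adjusted P = 0.00535) and was called in every fit that left out a library. *MAPK8IP2* was at 7.87, 7.99 and 7.87 against 7.31, 6.20 and 6.91 (-1.11, adjusted P = 0.019) and was called in 1 of 6 (largest adjusted P = 0.0927, without library 35). Several genes known as REST targets or NE markers had all 3 doxycycline libraries lower without being called. *VGF*, a secreted neuropeptide precursor, was at 3.99, 4.83 and 4.52 against 2.60, 1.72 and 2.26 (-2.25, SE 0.80, adjusted P = 0.154). *SYT4*, a synaptotagmin, was at 7.82, 7.72 and 7.69 against 7.27, 4.97 and 5.93 (-1.68, adjusted P = 0.0742), and *CHGA*, the granule protein chromogranin A, was at 4.96, 5.65 and 5.59 against 4.52, 4.08 and 4.53 (-1.02, adjusted P = 0.102). *SYT11* passed the P threshold (adjusted P = 0.0166) with a log2 fold change of -0.72, short of the fold threshold. Of 26 tested secretory granule and peptide hormone genes none was called by limma, 7 had an unadjusted P under 0.05, all below 0, and the median was -0.44.

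**Figure D2:**
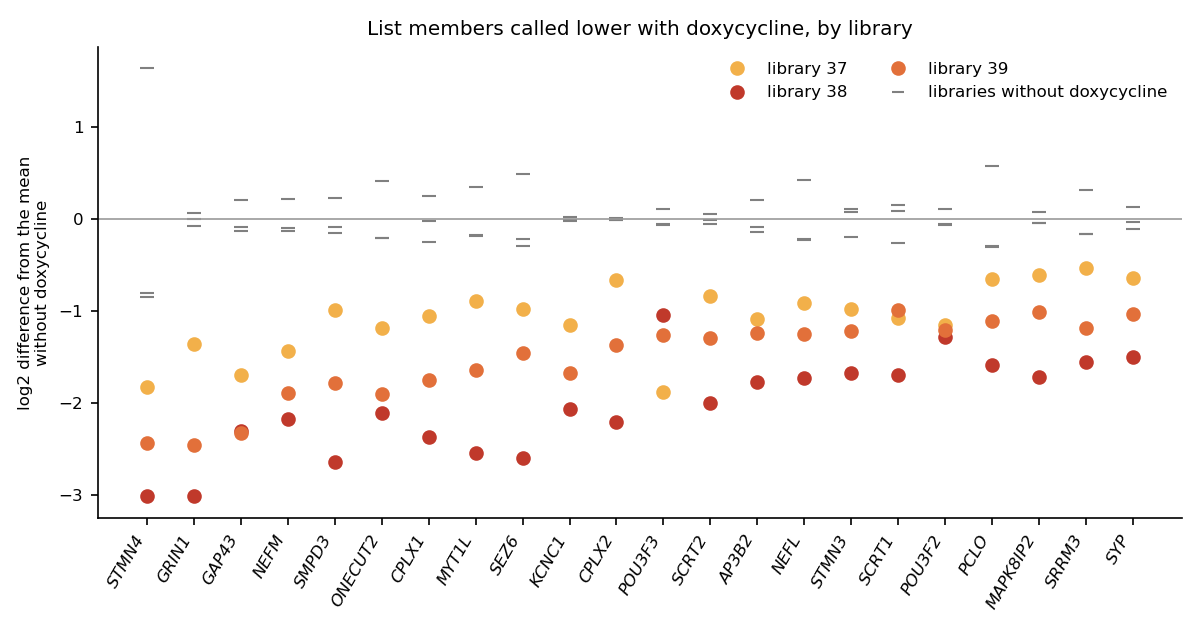
Difference of each doxycycline library (colored points) and each library without doxycycline (gray dashes) from the mean without doxycycline, in log2 units, for 22 called-lower genes of the neuronal, NE transcription factor, NE marker and REST machinery lists. Library 38 is the lowest and library 37 the highest in most genes, with *POU3F3*, *GAP43* and *SCRT1* in another order. Of the called-lower genes of these lists 1 is not drawn.

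The depth of the falls followed a common order across the doxycycline libraries. Among the 80 genes called lower, 54 (67.5%) were highest in library 37, then 39, then 38, as against 26.0% of all tested genes, and among the 15 called-lower neuronal genes 13 (86.7%) were, while 1 ran 37, 38, 39 and 1 was highest in 38 and lowest in 37. The median change of the 80 genes from the uninduced mean was -0.96 in library 37, -1.30 in 39 and -1.63 in 38, and that of the 15 neuronal genes was -1.05, -1.36 and -2.06. The library with the most *REST* thus had the deepest falls. The same order holds, inverted, for depth of sequencing and, in the same sense, for *HSPA1A*, *HSPA1B* and *DNAJB1*, so its relation to the *REST* level was not tested. In the genes called higher no order prevailed, with 56 of 175 (32.0%) in the order of *REST* (38, 39, 37) and 55 (31.4%) in the opposite one.

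Transcription factors of the NE lineage moved in part. Of 39 tested members 6 (15.4%) were called lower and 1 (2.56%) higher, against 0.586% and 1.28% of all tested genes, and their median was -0.06. *ONECUT2*, a homeodomain factor of NE tumors, was at 3.33, 2.71 and 2.71 without doxycycline and at 1.73, 0.81 and 1.02 with it (-1.73, SE 0.27, adjusted P = 0.00385). *MYT1L*, a neuronal zinc finger factor, was at 5.43, 4.89 and 4.91 against 4.19, 2.54 and 3.44 (-1.69, adjusted P = 0.0209). The POU factors *POU3F2* (BRN2) and *POU3F3* were at 6.64, 6.48 and 6.47 against 5.39, 5.25 and 5.33 (-1.21, adjusted P = 0.00553) and at 8.43, 8.58 and 8.41 against 6.60, 7.43 and 7.22 (-1.39, adjusted P = 0.0284). *POU3F2* differed little between the induced libraries despite their unequal *REST*, and *POU3F3* was lowest in library 37, which held the least *REST*. The Scratch repressors *SCRT1* and *SCRT2* fell by 1.25 (adjusted P = 0.0223) and 1.37 (adjusted P = 0.0158). *ONECUT2* and *POU3F2* remained called in every fit that left out a library, the Scratch genes in 2 of 6, and *MYT1L* and *POU3F3* in 1 of 6 (largest adjusted P = 0.0814 without library 39, and 0.116 without 35).

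The factors that define SCLC subtypes were not among the calls. *NEUROD1* was at 14.77, 13.82 and 13.86 without doxycycline and at 15.25, 14.57 and 14.66 with it (0.68, SE 0.42, adjusted P = 0.443), and the groups overlapped. *INSM1*, a zinc finger factor that marks NE tumors, was at 8.50, 8.56 and 8.13 against 7.74, 7.68 and 7.77 (-0.67, adjusted P = 0.348). *YAP1*, which marks SCLC without NE traits, was at 1.08, 0.23 and 0.24 against 2.01, 1.10 and 1.47 (1.01, adjusted P = 0.0848), and *POU2F3*, the tuft cell factor, was listed at 0 in 5 of the 6 libraries. The 1 factor called higher was *MYCL*, at 0.92, 1.44 and 1.19 against 2.33, 2.83 and 2.93 (1.51, adjusted P = 0.0205), which was called in 1 of 6 fits that left out a library (largest adjusted P = 0.111, without library 39). Of 24 tested SCLC NE markers, 3 (12.5%) were called lower, against 0.586% of all tested genes. They were *SYP*, *SEZ6* and *SMPD3*, a neutral sphingomyelinase gene, at 7.90, 7.52 and 7.59 against 6.69, 5.04 and 5.89 (-1.80, SE 0.34, adjusted P = 0.0122). *SMPD3* was not called without library 39 (adjusted P = 0.0554).

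Of the partners of REST none of the core subunits was called. *RCOR1* was at 3.81, 3.70 and 3.59 without doxycycline and at 3.70, 3.75 and 3.89 with it, *KDM1A* at 6.33, 6.21 and 6.08 against 6.17, 6.23 and 6.10, and *HDAC1* at 9.13, 8.66 and 8.70 against 9.14, 8.91 and 8.75, with adjusted P values of 0.874, 0.928 and 0.81. Of 26 genes of REST and its machinery, *REST* was called higher and *SRRM3* lower (3.85% each, against 1.28% and 0.586% of all tested genes). *SRRM3* encodes a neuronal splicing regulator whose family favors the inclusion of an exon that truncates REST. It was at 6.20, 5.73 and 5.72 against 5.36, 4.33 and 4.71 (-1.08, adjusted P = 0.034) and was called in 1 of 6 fits that left out a library (largest adjusted P = 0.149, without library 39). In the list of PRC2, DNA methylation and chromatin genes 1 of 39 (2.56%, against 1.28% of all tested genes), *PCGF2*, was called higher. It lies in a stretch of chromosome 17 described below.

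**Figure D3:**
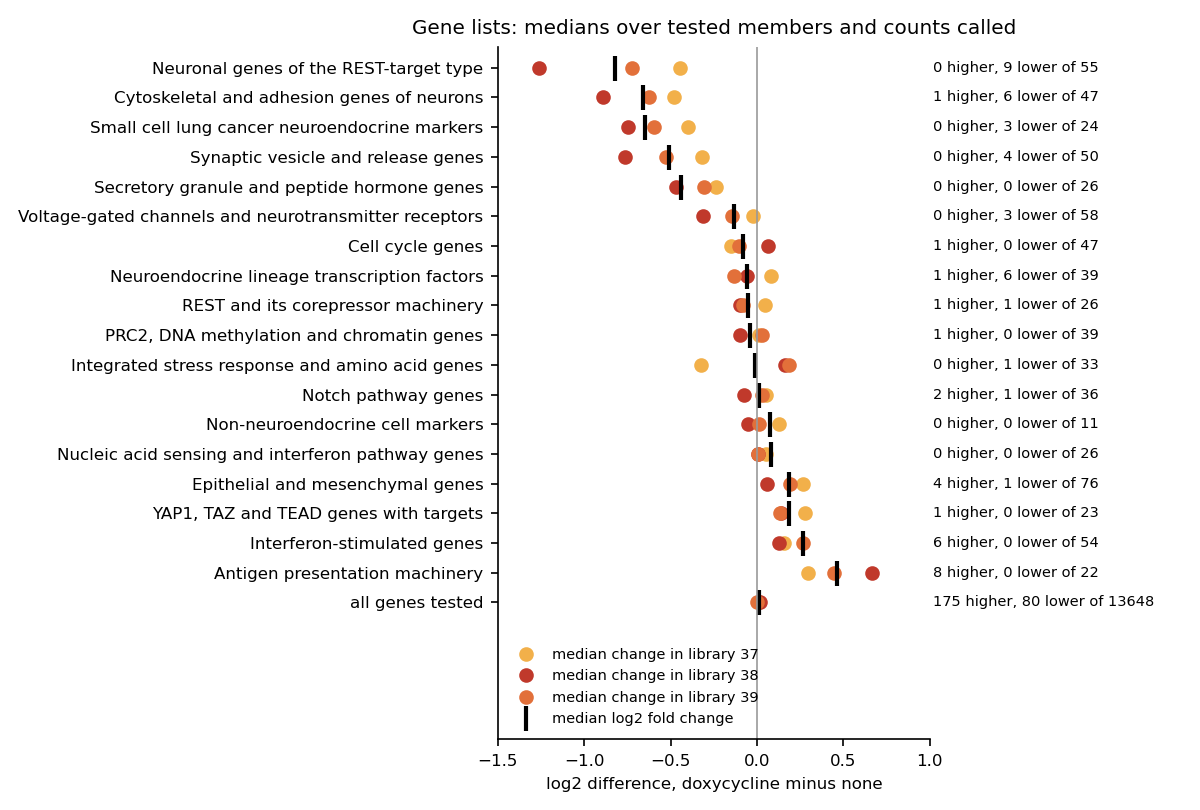
Median difference from the uninduced mean over the tested members of each of 18 gene lists and over all tested genes, in log2 units, for each doxycycline library (points) and for the model (bars), with the number called at the right. The neuronal lists lie to the left of all tested genes, in the order 38, 39, 37 from the lowest, and the antigen presentation list lies to the right.

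Outside the neuronal genes the deepest fall was that of *ALDH1L2*, which encodes the mitochondrial 10-formyltetrahydrofolate dehydrogenase of one-carbon metabolism. It was at 5.45, 5.94 and 5.87 without doxycycline and at 2.69, 1.19 and 1.55 with it (-3.94, SE 0.36, adjusted P = 0.00018), and it remained called in every fit that left out a library. Parental cells were at 5.24, 5.50 and 5.80. Of 33 integrated stress response and amino acid genes, a set controlled by the factor ATF4, *ALDH1L2* was the only 1 called (3.03%, against 0.586% of all tested genes called lower). The median of the list was -0.01. Other genes of the same folate pathway gave small differences, with *SHMT2* at -0.23 (adjusted P = 0.625) and *MTHFD2* at -0.20 (adjusted P = 0.754).

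*HMGA2*, a chromatin protein of embryonic and tumor cells, was at 4.34, 3.95 and 3.96 without and at 2.10, 2.23 and 1.96 with doxycycline (-1.99, SE 0.26, adjusted P = 0.00116). The 3 induced libraries were close to each other, and the call held in every fit that left out a library. *CREB5*, a bZIP factor, was at 4.87, 4.06 and 4.14 against 3.48, 1.86 and 2.57 (-1.72, adjusted P = 0.0288). The remaining large falls were those of the taste receptor gene *TAS2R19*, the small Cajal body RNA gene *SCARNA15* and the long noncoding RNAs *LINC00622* and *LINC00632*, by 2.73, 1.76, 1.86 and 1.75. *TAS2R19* was not called in any fit that left out a library (adjusted P up to 0.131, without library 38), and *CREB5* was called in 1 of 6 (up to 0.119, without 39). Some single called-lower genes were chosen after their values were seen, with no list fixed for them. *MVD*, mevalonate diphosphate decarboxylase, was at 5.83, 5.70 and 5.74 against 4.51, 4.13 and 4.08 (-1.52, adjusted P = 0.00973), and *DHCR7* and *EBP*, a sterol reductase and a sterol isomerase, fell by 1.15 and 1.03. *SCD*, a fatty acid desaturase, fell by 1.04, and *SCARB1*, a lipoprotein receptor, by 1.09. *MVD* was not called without library 39 (adjusted P = 0.0554), *EBP* in none of the 6 fits and the other 3 in 1 of 6.

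Among the genes that rose, *MSN* had the largest fold change. It encodes moesin, which links the actin cortex to the plasma membrane. It was at 0.56, 0.31 and 0.32 without doxycycline and at 6.84, 5.55 and 5.04 with it (5.41, SE 0.54, adjusted P = 0.000342). *NID2*, a basement membrane nidogen, was at 1.24, 0.71 and 1.07 against 3.56, 6.30 and 6.06 (4.30, SE 0.57, adjusted P = 0.00139). So *MSN* was highest in library 37 and *NID2* lowest there. *EGR1*, an immediate early factor, was at 0.22, 1.72 and 1.83 against 4.42, 4.32 and 4.28 (3.08, adjusted P = 0.0109), and *GABARAPL1*, an autophagy protein, at 2.68, 0.89 and 1.03 against 5.62, 3.99 and 4.50 (3.17, adjusted P = 0.0166). Here the uninduced libraries supplied much of the spread, with *EGR1* lowest and *GABARAPL1* highest in library 34. *COLCA1* was at 0.28, 0.07 and 0.03 against 3.04, 3.29 and 3.50 (3.15, adjusted P = 0.00018), *APOE*, a lipid carrier, at 1.91, 1.50 and 1.09 against 4.01, 4.63 and 4.71 (2.95, adjusted P = 0.0164), and the imprinted RNA *H19* at 0.89, 0.00 and 0.29 against 4.73, 3.44 and 1.96 (2.98, adjusted P = 0.0303). *MSN*, *NID2*, *EGR1* and *COLCA1* remained called in every fit that left out a library, *GABARAPL1* and *APOE* in 2 of 6 and *H19* in 1 of 6. Without libraries 34 and 37, *EGR1* (adjusted P = 0.088) and *H19* (0.112) were not called. On a scale of log2(RPKM + 1) fold changes from such low levels understate the change in RPKM. For *MSN*, *COLCA1* and *H19* only the induced libraries of this comparison reached the filter level, and a fall was hardly possible.

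Genes of the antigen presentation machinery (APM) were frequent among those that rose, most of them from very low levels. Of 22 tested members (of 32 listed), 8 (36.4%) were called higher, against 1.28% of all tested genes, and 0 lower, with a median of 0.46. *HLA-B*, a class I heavy chain, was at 0.29, 0.00 and 0.09 without doxycycline and at 2.56, 2.02 and 2.01 with it (2.07, SE 0.44, adjusted P = 0.024). *HLA-C* was at 0.22, 0.02 and 0.00 against 2.21, 2.93 and 2.36 (2.42, SE 0.41, adjusted P = 0.00729), and *HLA-E*, a nonclassical class I gene, at 0.03, 0.00 and 0.03 against 1.59, 1.66 and 1.75 (1.65, adjusted P = 0.00374). All 3 induced libraries lay above the uninduced ones by more than the spread within either group. For these class I genes only the induced libraries of this comparison reached the filter level, and from values near 0 a fall was hardly possible. *PSMB9*, an inducible immunoproteasome subunit, was at 1.77, 1.61 and 1.29 against 5.82, 4.53 and 4.77 (3.48, SE 0.70, adjusted P = 0.0171), and *PSMB8*, its neighbor in the same genomic cluster, at 1.37, 1.50 and 1.48 against 3.45, 3.12 and 2.96 (1.73, adjusted P = 0.0099). *TAP1*, a subunit of the peptide transporter, was at 1.03, 0.85 and 0.91 against 2.65, 1.91 and 2.01 (1.26, adjusted P = 0.0368). The class II genes *HLA-DPB1* and *HLA-DPA1* rose by 2.35 (1.01, 0.42 and 0.16 against 3.52, 2.40 and 2.71, adjusted P = 0.00136) and 1.53 (adjusted P = 0.0141). *B2M*, the light chain of class I molecules, was at 7.08, 6.84 and 6.71 against 7.63, 7.26 and 7.24 (0.50, adjusted P = 0.419).

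Leaving out 1 library gave 4 to 6 APM calls, the fewest without library 36. *HLA-C*, *HLA-E*, *HLA-DPB1* and *PSMB8* were called in every fit that left out a library. *HLA-B* and *TAP1* were called in none (adjusted P up to 0.105 and 0.138, each without library 35), *PSMB9* in 2 of 6 (up to 0.0837, without 36) and *HLA-DPA1* in 4. Of the 8, *HLA-C*, *HLA-E* and *HLA-DPB1* alone were called without libraries 34 and 37, and the adjusted P values of *HLA-B* and *PSMB8* were 0.124 and 0.088. Of the 8 called members 6, *HLA-B*, *PSMB9*, *PSMB8*, *TAP1*, *HLA-DPB1* and *HLA-DPA1*, were highest in library 37, the induced library with high heat shock RNA, and the part of that library state in the result was not tested. Reads of class I genes can be split between near-identical copies, so single HLA values are uncertain.

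Of 54 tested interferon-stimulated genes (ISGs) 6 (11.1%) were called higher, against 1.28% of all tested genes, and 0 lower, with a median of 0.27. In 22 of the 54 all doxycycline libraries lay above all without, an arrangement found in 17.3% of all tested genes. *TRIM21*, an antibody receptor and ubiquitin ligase, was at 0.39, 0.17 and 0.28 without doxycycline and at 2.17, 1.55 and 1.53 with it (1.47, SE 0.16, adjusted P = 0.000535). *IFITM3*, a membrane protein that blocks virus entry, was at 1.20, 0.88 and 1.16 against 2.81, 2.15 and 2.34 (1.35, adjusted P = 0.0306). The other called members were *IFI30* (2.13), *PARP14* (1.05), *ISG15* (1.02) and *IFI35* (1.01). *TRIM21* was called in every fit that left out a library and *PARP14* in 5 of 6, while *IFI30* and *IFITM3* were called in none. For *TRIM21* only the induced libraries of this comparison reached the filter level, and a fall was hardly possible. The ISG calls numbered 1 to 3 without library 34, 35, 36, 38 or 39 and 6 without 37, and they fell to 2 with quantile normalization and to 3 with libraries centered on their medians. The nucleic acid sensing and interferon signaling genes upstream gave no call among 26 tested, and 1 had an unadjusted P under 0.05. *TMEM173*, which encodes the DNA-sensing adaptor STING, was at 1.80, 1.41 and 1.55 against 2.71, 2.36 and 2.61 (0.97, SE 0.48, adjusted P = 0.315). The *TMEM173* values did not overlap between groups, but the difference did not pass the test. The SE of that test pools the spread within all H524 groups, not within the REST-vector groups alone. The failed test therefore does not show that *TMEM173* was unchanged.

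Of 36 tested Notch pathway genes, *NOTCH1* and *HEY2* were called higher (5.56%, against 1.28% of all tested genes) and *HES7* lower (2.78%, against 0.586%), and the median was 0.01. *NOTCH1*, the receptor, was at 0.53, 0.46 and 0.49 against 1.41, 2.29 and 1.91 (1.38, adjusted P = 0.0144), a rise within low levels. *HEY2*, a Notch target repressor, was at 3.23, 2.91 and 2.52 against 4.31, 4.75 and 4.75 (1.72, adjusted P = 0.0109), and *HES7* was at 1.68, 2.76 and 2.36 against 0.98, 1.23 and 1.05 (-1.18, adjusted P = 0.048). *HES1*, the most common Notch target, was at or below 0.69 in all 6 libraries (0.26, adjusted P = 0.605). The 3 calls were made in 2, 3 and 1 of 6 fits that left out a library (largest adjusted P values of 0.0706, 0.0682 and 0.202, without libraries 39, 36 and 35).

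Of 76 tested epithelial and mesenchymal genes, 4 (5.26%) were called higher and 1 (1.32%) lower, against 1.28% and 0.586% of all tested genes. *ITGA5*, the fibronectin receptor subunit, was at 1.66, 1.86 and 1.96 against 4.61, 4.88 and 4.53 (2.85, SE 0.33, adjusted P = 0.000618). *KRT19*, a simple epithelial keratin, was listed at 0 without doxycycline and at 2.49, 1.51 and 1.68 with it (adjusted P = 0.00784). Within this comparison only the induced libraries reached the filter level for *KRT19*, and from 0 no fall was possible. *NT5E* (CD73) and *TGFB1* rose by 1.28 and 1.04, and *CDH2*, N-cadherin, fell by 1.16 (9.32, 8.98 and 9.03 against 8.43, 7.41 and 8.01, adjusted P = 0.0396). *VIM*, the mesenchymal filament vimentin, was at 6.07, 5.80 and 5.76 against 4.79, 4.48 and 4.50 (-1.29, adjusted P = 0.131). Its values did not overlap between groups, and its test too used spread pooled over all H524 groups. So the lack of a call does not show that *VIM* was unchanged. *AXL*, a receptor kinase of mesenchymal cells, did not exceed 0.32 in any library (adjusted P = 0.539). *ITGA5*, *KRT19* and *NT5E* were called in every fit that left out a library, *CDH2* in 1 of 6 and *TGFB1* in none (adjusted P up to 0.143, without library 39). Among 47 cell cycle genes 1 (2.13%) was called, against 1.28% of all tested genes called higher. This was *CDKN1A*, the CDK inhibitor p21, at 1.63, 0.77 and 1.00 against 2.20, 3.54 and 3.15 (1.83, adjusted P = 0.0215). It was called in 2 of 6 such fits (up to 0.111, without library 35). *MKI67*, a proliferation marker, was at 7.55, 7.21 and 7.20 against 6.55, 7.04 and 6.76 (-0.53, adjusted P = 0.255).

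Chromosome 17 held 36 of the 175 genes called higher, 4.36% of its 826 tested genes against 1.28% of all, and 4 of the 80 called lower. Runs of at least 4 neighboring tested genes were then sought, each moved by more than 0.5 in the same direction with no overlap between the groups. There were 13, of which 5 ran upward, 2 of them on chromosome 17, 1 on chromosome 12 and 2 on chromosome 19, and 8 ran downward, 3 of them on chromosome 17. The 2 longest are described, and the genes named from them were chosen after their values were seen. A run of 11 genes, from *C17orf96* to *PLXDC1* (chromosome 17, 36827956 to 37310647, GRCh37), was called higher throughout, with log2 fold changes of 1.43 to 4.72 and a median of 2.64. It includes *PLXDC1*, an endothelial plexin domain gene (0.52, 0.21 and 0.28 against 6.38, 3.95 and 4.84, fold change 4.72, adjusted P = 0.000419), *PSMB3*, a constitutive proteasome subunit (5.46, 5.06 and 5.17 against 9.00, 7.24 and 7.39, fold change 2.64), the ribosomal protein gene *RPL23* (10.33, 9.72 and 9.67 against 13.34, 10.97 and 11.74, fold change 2.11) and *PCGF2*, a Polycomb subunit (2.44, 2.00 and 2.05 against 5.09, 3.29 and 3.82, fold change 1.91). The genes next to the run, *ARHGAP23* and *CACNB1*, had log2 fold changes of 0.41 and 0.22. The median change in the run was 3.43 in library 37, 2.00 in 38 and 2.15 in 39, so that the rise was largest where *REST* was lowest.

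A second run of 12 genes, from *MAP3K14* to *LRRC37A2* (chromosome 17, 43340486 to 44657061, GRCh37), held 8 calls, with fold changes of 0.77 to 3.39 and a median of 1.65. *MAP3K14*, the kinase NIK of noncanonical NF-κB signaling, was at 2.28, 2.25 and 2.25 against 6.95, 4.65 and 5.35 (3.39, SE 0.44, adjusted P = 0.00116), and *MAPT*, the microtubule protein tau and the only member of the neuronal lists called higher, was at 1.40, 1.05 and 1.08 against 3.81, 2.07 and 2.90 (1.76, adjusted P = 0.0164). The neighbors *MAP3K14-AS1* and *NSF* had fold changes of 0.01 and 0.22, and the median changes in the run were 2.50, 0.99 and 1.58 in libraries 37, 38 and 39. Values of *LRRC37A2* and of other genes in this run with near-identical copies close by are uncertain, as are those of overlapping antisense genes because the counting is not stated to use strand. Both runs had the order 37, 39, 38 in nearly all genes, 10 of 11 and 11 of 12, the order of the heat shock genes and the inverse of *REST*. Without libraries 34 and 37 the fold change was 2.75 for *MAP3K14* and 4.15 for *PLXDC1*, both still called (adjusted P = 0.00266 and 0.00127). Part of the short arm lay lower. Over 638 bins of 15 consecutive genes with a mean of at least 2 before doxycycline, the lowest median, -0.75, was that of the genes between 7486847 and 8066864 of chromosome 17, with median changes of -0.67, -0.73 and -0.68 in the 3 libraries. The highest bin, at 1.82, overlapped the first run, and the 5th and 95th percentiles of all bins were -0.29 and 0.20. Several bins of this chromosome outside both runs were also above that range. Among them were those starting at 17408877 (0.39), 57187218 (0.42), 66417089 (0.44) and 77806955 (0.52). Bins starting at 26655351 (-0.49) and 27717680 (-0.35) were below it, so shifts went beyond the runs in both directions. DNA copy number was not measured here, and its part in these runs was not tested.

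Farther along the same chromosome, 4 of 9 tested HOXB genes, which encode homeodomain factors of body axis patterning, were called higher, against 1.28% of all tested genes. *HOXB13* was at 0.00, 0.38 and 0.00 against 3.27, 3.46 and 3.51 (3.29, SE 0.35, adjusted P = 0.000419) and *HOXB4* was listed at 0 without doxycycline and at 2.61, 3.74 and 2.55 with it (adjusted P = 0.00989). *HOXB9* was at 2.00, 2.41 and 2.41 against 4.41, 5.15 and 5.83, and *HOXB7* at 0.46, 0.15 and 0.39 against 2.41, 2.73 and 2.33. In each of these 4 the induced libraries lay above all uninduced ones, with no common order among them. *HOXB13*, *HOXB4* and *HOXB7* were near 0 in the uninduced libraries. Within this comparison only the induced libraries reached the filter level for these genes, and a fall was hardly possible. The other tested members were *HOXB3* (0.95), *HOXB5* (0.48), *HOXB6* (0.15), *HOXB8* (0.05) and *HOXB2* (-0.07), none of them called. Without chromosome 17, 139 genes were higher and 76 lower of 12822 tested.

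**Figure D4:**
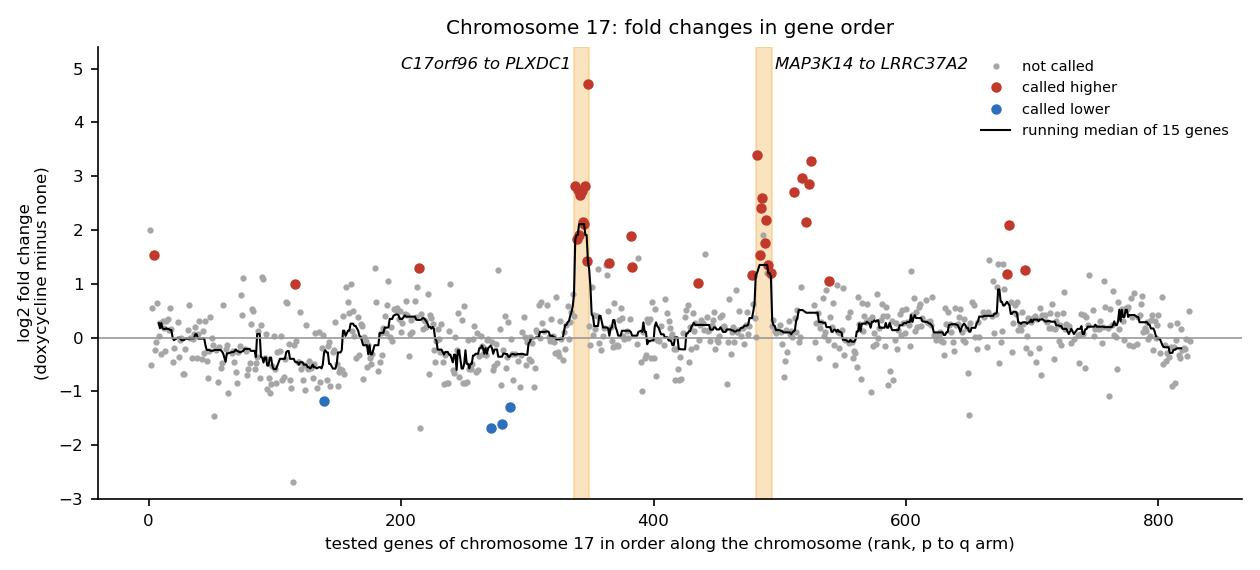
Log2 fold change with doxycycline of each tested gene of chromosome 17, in order along the chromosome, with the running median of 15 genes as a line and both runs shaded. The run from *C17orf96* to *PLXDC1* is called higher in all 11 genes, and the run from *MAP3K14* to *LRRC37A2* in 8 of 12.

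Parental cells were set beside both groups. For most called genes the parental mean lay nearer to the uninduced vector cells, and it lay nearer to the induced cells in 20 of the 175 higher genes (11.4%) and 11 of the 80 lower genes (13.8%). *INSR*, the insulin receptor gene, chosen after its values were seen, was at 0.09, 0.05 and 0.00 without doxycycline and at 2.92, 2.53 and 2.78 with it (2.70, SE 0.21, adjusted P = 7.99e-05). Its parental values were 2.71, 1.97 and 2.63, so the uninduced cells with the REST vector were the low group. *HEY2* had parental values of 4.28, 4.47 and 4.03, above the uninduced REST-vector cells, but the uninduced N1ICD-vector cells were also low (2.82, 3.82 and 2.45), unlike for *INSR* (5.21, 5.72 and 5.18).

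The response was set beside that to N1ICD in the same line, which had its own uninduced controls, so the difference between the responses was tested directly. The controls differed in *REST* itself, at 2.93, 2.66 and 4.20 in uninduced N1ICD-vector cells against 5.05, 5.03 and 4.90 in uninduced REST-vector cells. With N1ICD it was at 5.96, 5.85 and 6.12. With N1ICD, 1559 genes were called higher (11.4% of those tested) and 981 lower (7.19%). Of the 80 genes that fell with REST, 32 were also lower and 2 higher with N1ICD, and of the 175 that rose, 69 were also higher and 15 lower. The difference itself was called in 775 genes as higher with REST (5.68%) and in 1348 as lower (9.88%). Of the 80 fallen genes the difference was called lower with REST in 20 and higher in 5, and of the 175 risen genes lower in 27 and higher in 75. *GRIN1* fell by 2.27 with REST and by 2.39 with N1ICD, with a difference of 0.11 (adjusted P = 0.91). *POU3F3* fell by 1.39 and by 3.35 (difference 1.96, adjusted P = 0.0054), while *AP3B2* fell by 1.36 with REST and stood at -0.11 with N1ICD (difference -1.26, adjusted P = 0.012).

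Genes outside the neuronal lists differed more widely. *NEUROD1* stood at 0.68 with REST and fell by 4.36 with N1ICD (difference 5.04, adjusted P = 4.2e-05). *HLA-B* rose by 2.07 and by 5.49 (difference -3.42, adjusted P = 0.0014), its libraries with N1ICD being at 6.57, 6.96 and 7.45 and the matching uninduced ones at 1.07, 2.87 and 0.57. *AXL* stood at 0.19 and rose by 7.77 (difference -7.58, adjusted P = 3e-11), and *VIM* stood at -1.29 and rose by 2.55 (difference -3.84, adjusted P = 0.00045). *MSN* rose by 5.41 and by 6.39, a difference of -0.98 that did not pass the test (SE 0.77, adjusted P = 0.42). In the list of epithelial and mesenchymal genes the difference was lower with REST in 48 of 76 and higher in 7, and among ISGs in 25 and 4 of 54. The genes of the 2 runs on chromosome 17 had medians of 0.16 and -0.09 with N1ICD, and the difference was called as higher with REST in 8 of 11 and 8 of 12.

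**Figure D5:**
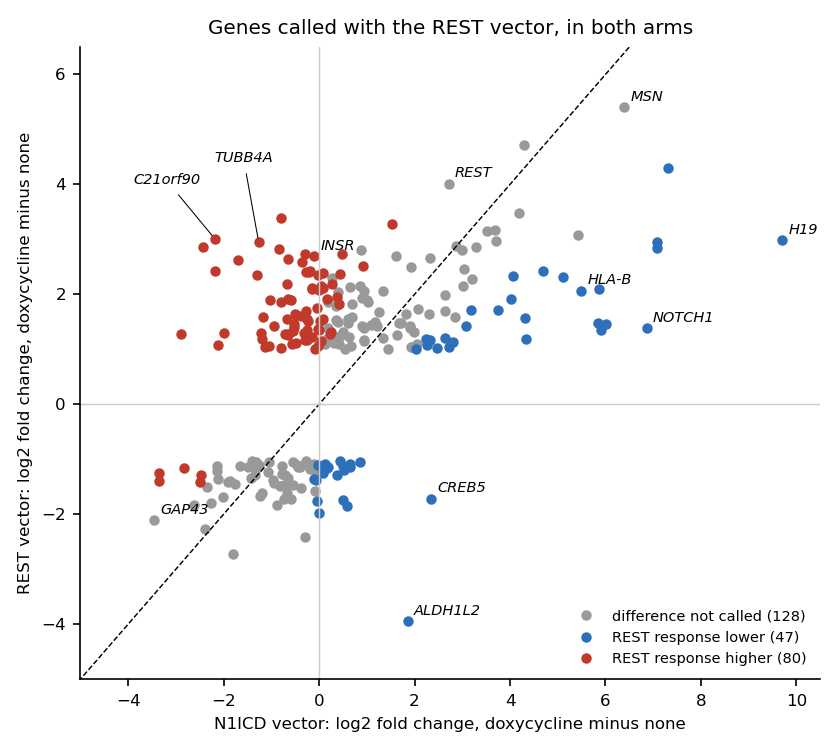
Log2 fold change with doxycycline of the 255 called genes in cells with the REST vector (vertical axis) against that in cells with the N1ICD vector (horizontal axis), colored by the test of the difference. Equal responses lie on the dashed line, *MSN* and *REST* are among the genes with no called difference, and *ALDH1L2* and *CREB5* lie at the lower right, lower with REST and higher with N1ICD.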

How the data were processed

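RNA-seq reads were aligned to hg19 with STAR and quantified with RSEM by the authors, who deposited log2(RPKM + 1) values after TMM scaling with edgeR, per the labels and the study's methods. Tool versions, the annotation and gene lengths are not given in the sources used here. No counts were used, so tests were run on the deposited log2 values with limma 3.58.1 (R 4.3.3), with 1 mean per group over 15 H524 libraries and a variance trend, in place of the voom model of the study. Genes at log2 1 or more in 3 or more of these libraries were tested, and P values were adjusted by Benjamini-Hochberg. The 45 columns of other cell lines were not used. The genes named were the 15 largest rises and 15 largest falls among non-overlapping calls with a mean of at least 2 in the higher group, besides called or defining list members. Members and lists were chosen with earlier results of these data known. Gene positions came from GENCODE for GRCh37, matched by symbol (13550 of 13648 tested genes), and promoters from RefSeq. The depth of the libraries is known only relative to each other, and the number of libraries limits precision. The fit was tested on simulated data. A few genes that met the naming rule are not reported here.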

Additional observations from a re-analysis of the deposited data

Results flagged for a closer look

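In 17 genes the log2 fold change with doxycycline had opposite signs in cells with the REST vector and in cells with the N1ICD vector, each past the threshold in its own arm, and limma called the difference between them. They were lower with REST in 2 genes and higher in 15, and the 4 of them that met the rule for named genes are given here. *ALDH1L2* fell by 3.94 with REST and rose by 1.86 with N1ICD, where its libraries went from 4.75, 5.35 and 5.98 to 7.49, 7.09 and 7.10, a difference of -5.81 (SE 0.51, adjusted P = 2.5e-06). *CREB5*, a bZIP factor, fell by 1.72 and rose by 2.35 (1.00, 1.64 and 1.99 to 3.70, 4.02 and 3.96), a difference of -4.07 (SE 0.53, adjusted P = 9.3e-05). *TUBB4A*, a neuronal beta-tubulin gene, rose by 2.95 with REST (0.86, 0.30 and 0.33 to 4.04, 2.82 and 3.48) and fell by 1.27 with N1ICD (2.29, 3.42 and 4.04 to 2.06, 1.79 and 2.10), a difference of 4.21 (SE 0.54, adjusted P = 7.5e-05). *C21orf90* rose by 3.01 (0.00, 0.77 and 1.30 to 2.46, 4.44 and 4.20) and fell by 2.18 (6.13, 6.29 and 5.81 to 4.08, 3.54 and 4.05), a difference of 5.19 (SE 0.70, adjusted P = 0.00013). The uninduced cells of the 2 arms already differed in *CREB5*, *TUBB4A* and *C21orf90*, without overlap, so these opposite changes started from unlike levels. For *C21orf90*, parental cells were at 3.83, 2.45 and 3.74. The REST change of *ALDH1L2*, *TUBB4A* and *C21orf90* was called in every fit that left out a library, and that of *CREB5* in 1 of 6.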

How the results depend on the processing

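Limits came mainly from the 6 libraries. Leaving out each in turn gave 112 to 298 called genes, 80 to 168 higher and 25 to 130 lower, 1822 to 2123 called differences between the REST and N1ICD responses, a *REST* fold change of 3.16 to 5.08 and a share of lower-called promoters with the RE1 core, 1 mismatch allowed, of 0 to 1.11%. Array weights, which gave libraries 35 and 36 the most weight, raised the calls to 774 (491 higher and 283 lower), and the P threshold alone gave 386, of which 144 were lower. A model of only the vector libraries called 348 genes (247 higher, 101 lower) but gave *REST* an adjusted P of 0.0605 at the same fold change of 4.01, and 20 of 33 named lower and 30 of 37 named higher genes kept their call. Without a filter there were 224 calls, with a pseudocount of 0.1 298, with quantile normalization 250 and with median-centered libraries 269. Without libraries 34 and 37 there were 197, and without chromosome 17 215, both chosen after the data were seen. No call among the genes named reversed its sign. No paired analysis was possible because the numbers in the labels run on across groups and none is shared between them.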
